A study of Mus musculus with 2 samples.

Results

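The genes described here modify, cut or assist the Notch receptor: the fucosyltransferase gene Pofut1, the fringe genes Lfng, Mfng and Rfng, the protease gene Adam10, the endocytic adaptor gene Numb and the Mastermind-like genes Maml1, Maml2 and Maml3. They were chosen by name and not by a rule on their measured values, though earlier results of these data were known. Every non-control spot whose gene name in the scanner files is that of a member was taken. This gave 15 probes of 9 genes, out of 39429 probes on the array. At least 1 probe of each of the 9 genes passed the filter on dim probes, so all 9 are among the 20989 gene-level features tested, and 11 of the 15 probes passed.

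The samples were ureters of NMRI mouse embryos at E18.5. Rbpj-cKO embryos had the genotype Tbx18(cre/+);Rbpj(fl/fl), in which cre expressed from the Tbx18 locus acts on floxed Rbpj in the mesenchyme around the ureteric epithelium. Control embryos had the genotype Rbpj(fl/?), so at least 1 of their Rbpj alleles was floxed too, and no cre is named for them. The groups thus also differ at Tbx18, since cre sits at 1 of its alleles in Rbpj-cKO embryos. Each of the 2 arrays set RNA of Rbpj-cKO and control embryos of 1 sex against each other, and values given below for males and females are those of these arrays. The male array held Rbpj-cKO RNA in the red and control RNA in the green channel, and the female array held Rbpj-cKO RNA in the green and control RNA in the red channel. The number of embryos behind each RNA is not in the labels, so the spread below is between these 2 arrays and not between embryos.

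Notch receptors are transmembrane proteins that are modified with sugars before they reach the cell surface. Pofut1 adds O-fucose to the receptor's extracellular repeats, and the fringe enzymes extend that fucose, which changes the response to the different ligands. After a ligand binds, Adam10 cuts the receptor outside the membrane, and gamma-secretase then frees the intracellular part. That part enters the nucleus, binds the DNA-binding protein encoded by Rbpj and recruits a Mastermind-like coactivator, while Numb acts upstream as an inhibitor of the receptor. The comparison addresses how the ureter's transcripts differ after Rbpj is targeted in its mesenchyme, here for the genes that act on the receptor upstream of Rbpj or bind beside it.

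Quality and tissue were as follows. In the 4 channels 66.8% to 71.1% of non-control spots stood well above background, none was saturated, and the number of arrays limits the precision. The targeted gene Rbpj had log2 ratios of Rbpj-cKO over control of -1.58 in males and -0.93 in females at the brighter of its probes (limma adjusted p = 0.0760). At its other probe the log2 ratios were -0.42 in males and -1.12 in females, so the array with the larger drop differed. The sources used here do not say whether cre removes the part under either probe. Of the markers of the tissue, all 4 smooth muscle genes (Acta2, Myh11, Tagln and Cnn1) and all 5 urothelial genes (Upk1a, Upk1b, Upk2, Upk3a and Krt5) were measured, with a median mean log2 ratio of -0.28 for smooth muscle and 0.33 for urothelium and none past the test. The log2 of the intensity summed over the genes of a list was 18.97 to 18.98 in Rbpj-cKO and 19.11 to 19.27 in control RNA for smooth muscle. For urothelium it was 19.45 to 19.52 in Rbpj-cKO and 19.14 to 19.26 in control RNA. The 8 other marker lists had median log2 ratios from -0.86 for skeletal muscle to 0.96 for kidney epithelium. Of the skeletal muscle genes, Ckm had a mean of -1.425 and passed the test, and Tnnc2 had -0.86. Myl1 went the other way, with 0.01 in males and 0.74 in females. Of the 4 kidney markers 2 were measured, Six2 at a mean of 1.17 and Cdh16 at 0.75, and Umod and Slc34a1 were not. Six2 marks nephron progenitors, so that list is not of epithelium alone. In whole ureters fewer cells of a type and less RNA per cell cannot be told apart. The part of these marker shifts in the values below was not tested.

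None of the 9 genes passed the test in Rbpj-cKO ureters against controls. Each limma adjusted p was 1, and none had an unadjusted p under 0.05, as 708 of all features had. The mean log2 ratios lay between -0.12 for Mfng and 0.33 for Maml2, with a median of 0.07, where the median over all features was 0.01. Over all 20989 features 27 passed, which is 0.129%, and at that share no call would be usual among any 9 genes. The 95% interval of each gene's mean lay within a 2-fold change either way, from 0.682-fold at the low end for Mfng to 1.74-fold at the high end for Maml2. These intervals take their width mostly from a spread pooled over all features, and 97.5% of all features had an interval within the same bounds. The targeted gene Rbpj, at a mean log2 ratio of -1.25, did not pass the test either (limma adjusted p = 0.0760). Not passing with 2 arrays therefore does not show that a transcript is unchanged.

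**Figure D1:**
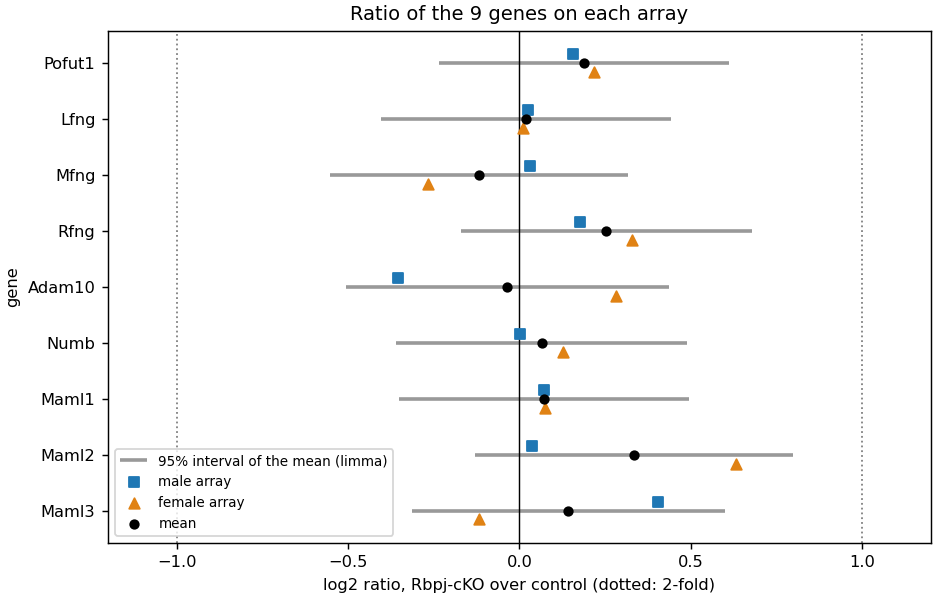
Log2 ratio of Rbpj-cKO over control (x axis) for each of the 9 genes (y axis) on the male array (squares) and the female array (triangles), with the mean (black points) and its 95% interval from limma (grey lines); dotted lines mark a 2-fold change. All 9 intervals include 0, and the arrays lie on opposite sides of 0 for Mfng, Adam10 and Maml3.

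Pofut1, the enzyme that starts the O-fucose sugars on Notch, was measured by a pair of probes on chromosome 2 (mm9). Its brighter probe, at 153095876 to 153095935 on the plus strand, had a log2 intensity of 14.33 in male and 14.46 in female Rbpj-cKO ureters, against 14.17 and 14.24 in control ureters. The groups did not overlap, with Rbpj-cKO above control on each array. The mean log2 ratio was 0.19 (SD 0.04, n = 2; 1.14-fold; limma adjusted p = 1), and the 95% interval ran from -0.23 to 0.61. The dimmer probe, at 153087053 to 153087112, gave log2 ratios of 0.03 in males and 0.09 in females, so the second probe had a smaller ratio with the same sign.

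Lfng, the fringe gene that in mouse presomitic mesoderm is itself switched on by Notch signalling, showed nearly equal levels. Its single probe lies on chromosome 5 at 141091224 to 141091283 on the plus strand (mm9). The log2 intensity was 9.34 in male and 9.41 in female Rbpj-cKO ureters, and 9.31 and 9.40 in control ureters. The groups overlapped. The mean log2 ratio was 0.02 (SD 0.01, n = 2; limma adjusted p = 1), with a 95% interval from -0.40 to 0.44, and 89.9% of all features had a larger absolute mean.

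Mfng, the fringe with the lowest ratio of the 9 genes, was read by neighbouring probes on the minus strand of chromosome 15 (mm9), at positions 1755 and 1657 of the transcript. Since these probes overlap in no base and gave different signs on the male array, the first 30 bases of each 60-base probe are shown, 5′ to 3′, in lower case with nothing marked in capitals.
Mfng probe at chr15:78586332-78586391: atgaaggaaaggccaagacaatctaaagtt
Mfng probe at chr15:78586430-78586489: atagaagggtttctggaatacattcccagc
The first of these, the brighter probe, had a log2 intensity of 13.34 in male and 13.23 in female Rbpj-cKO ureters, and 13.31 and 13.49 in control ureters. Its log2 ratios were 0.03 in males and -0.27 in females (mean -0.12, SD 0.21, n = 2; limma adjusted p = 1; 95% interval -0.55 to 0.32). The groups overlapped, and the mean came from the female array. The other probe gave -0.17 in males and -0.01 in females, so both probes had a mean below 0, at -0.12 and -0.09, while the array that carried it differed.

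Rfng, the third fringe gene, had the highest mean of the sugar-modifying members. At its probe on chromosome 11 at 120642060 to 120642119 (minus strand, mm9) the log2 intensity was 12.90 in male and 13.00 in female Rbpj-cKO ureters, and 12.72 and 12.67 in control ureters. The groups did not overlap. The mean log2 ratio was 0.25 (SD 0.11, n = 2; 1.19-fold; limma adjusted p = 1; 95% interval -0.17 to 0.68), and 14.2% of all features had a larger absolute mean. A second Rfng probe at 120643797 to 120643856 was well above background on 1 of 2 arrays in each group and was left out of the test.

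Adam10, the protease that makes the ligand-dependent cut, had ratios of opposite sign. The log2 intensity at its probe on chromosome 9 at 70627859 to 70627918 (plus strand, mm9) was 15.37 in male and 15.84 in female Rbpj-cKO ureters, and 15.72 and 15.56 in control ureters. The groups overlapped. The log2 ratio was -0.35 in males and 0.28 in females (mean -0.04, SD 0.45, n = 2; limma adjusted p = 1; 95% interval -0.51 to 0.44). Turned to red over green, the ratios were -0.35 in males and -0.28 in females, so the red channel was the lower on both. Sex, dye and the embryos used cannot be told apart here, since each array differed from the other in all of them. By the ratio and error that Feature Extraction gives for each spot, the arrays differed by 2.66 times their combined error for Adam10. For the brighter probes of the other 8 genes this figure was 0.0877 to 1.51. An array-to-array difference larger than that of Adam10 was found for 14.6% of all features. With median centring in place of loess, the signs of Adam10 turned to 0.09 in males and -0.12 in females.

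Numb, the adaptor that inhibits Notch at the membrane, had a log2 intensity of 10.23 in male and 10.19 in female Rbpj-cKO ureters, and 10.22 and 10.06 in control ureters, at its probe on chromosome 12 at 85136400 to 85136459 (minus strand, mm9). The groups overlapped. The mean log2 ratio was 0.07 (SD 0.09, n = 2; limma adjusted p = 1; 95% interval -0.36 to 0.49).

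The coactivators differed among themselves in how well the arrays matched. The log2 intensity of Maml1, at chromosome 11 from 50069166 to 50069225 (minus strand, mm9), was 14.19 in male and 14.32 in female Rbpj-cKO ureters, and 14.12 and 14.25 in control ureters. The groups overlapped, and the ratio was 0.07 in each sex (mean 0.07, SD 0.0017, n = 2; limma adjusted p = 1; 95% interval -0.35 to 0.50). An SD over 2 arrays is itself imprecise, and the interval uses the pooled spread.

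For Maml2 and Maml3 the value came mostly from 1 array each, and the start of the tested probe of both is shown, again as the first 30 of 60 bases, 5′ to 3′, with nothing marked in capitals.
Maml2 probe at chr9:13511227-13511286: ttgggattgtttttccctgcctgaacttca
Maml3 probe at chr3:51491665-51491724: ccaactaatagagtggtagattttaatgag
Maml2 (plus strand, mm9) had a log2 intensity of 10.68 in male and 11.18 in female Rbpj-cKO ureters, and 10.65 and 10.54 in control ureters. The groups did not overlap, and the female Rbpj-cKO channel stood above the other channels. The log2 ratio was 0.04 in males and 0.63 in females (mean 0.33, SD 0.42, n = 2; limma adjusted p = 1; 95% interval -0.13 to 0.80), and 7.44% of all features had a larger absolute mean. Maml3 (minus strand, mm9) had 11.07 in male and 10.70 in female Rbpj-cKO ureters, and 10.67 and 10.82 in control ureters. The groups overlapped, with log2 ratios of 0.40 in males and -0.12 in females (mean 0.14, SD 0.37, n = 2; limma adjusted p = 1; 95% interval -0.31 to 0.60).

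Both of these coactivators also had probes that were too dim to test. The Maml2 probe that was tested starts at base 3797 of its transcript and the one at base 364 was not well above background in any of the 4 channels. The tested Maml3 probe starts at base 6322, and those at bases 767 and 3497 were likewise not well above background in any channel. No fold is given for these 3 probes.

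**Figure D2:**
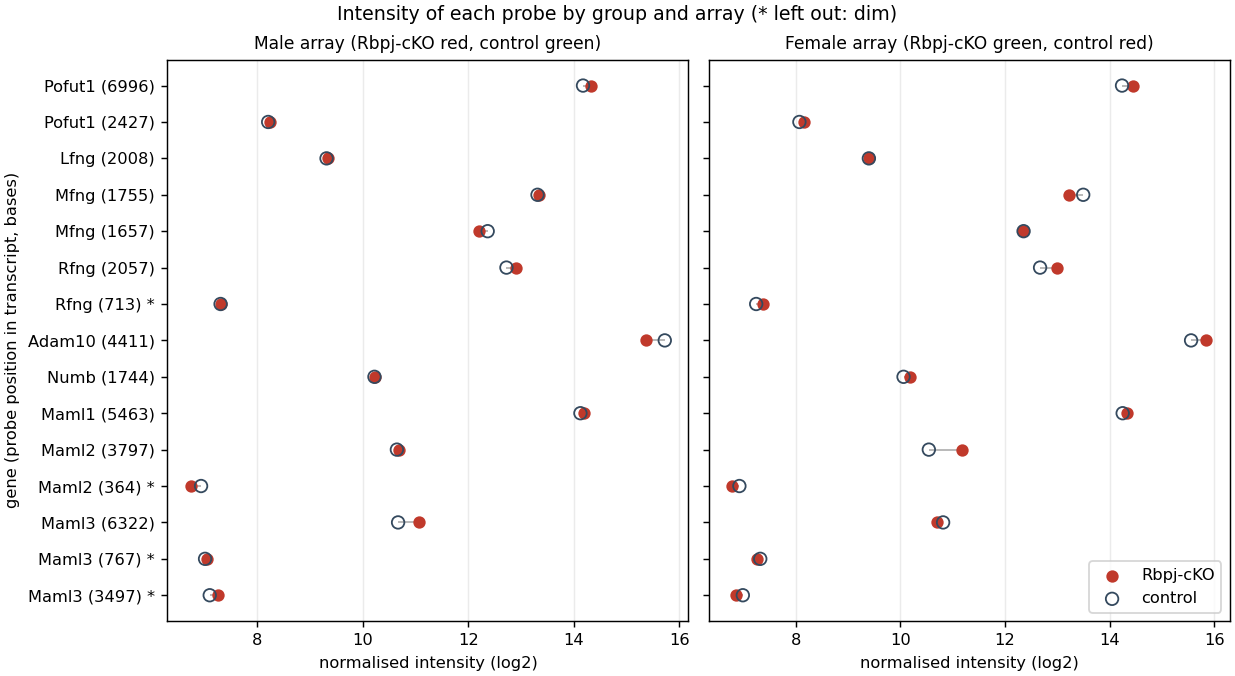
Normalised log2 intensity (x axis) of the 15 probes, named by gene and by the probe's position in the transcript (y axis), in Rbpj-cKO RNA (filled) and control RNA (open) on the male array (left) and the female array (right); an asterisk marks the 4 probes left out as dim. The gap between the groups is widest for Maml2 on the female array and for Maml3 on the male array, and levels of different probes are not comparable.

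Across the 9 genes, the groups did not overlap for 3 (Pofut1, Rfng and Maml2), each with Rbpj-cKO higher, and overlapped for 6. Over all features 14.9% did not overlap with Rbpj-cKO higher, and 27.4% did not overlap in either direction. The ratio was above 0 on both arrays for 6 of the 9 genes (Pofut1, Lfng, Rfng, Numb, Maml1 and Maml2) and below 0 on both for none, where 21.7% of all features were above and 19.7% below 0 on both. Among the 14941 features at least as bright as the dimmest member, 21.7% were above 0 on both as well. The signs were opposite for 3 of the 9 genes, and for 58.6% of all features. Of the 6 genes, Lfng, Numb and Maml1 had mean ratios of at most 0.07. With Agilent's processed signals Lfng and Numb were below 0 in females and Maml3 was above 0 on both arrays, which left 5 of the 9 genes above 0 on both. With median centring 4 of the 9 genes were above 0 on both arrays. No gene changed at least 1.5-fold on both arrays, as 0.638% of all features did.

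The members sat near the centre of the plot of the male against the female array. Heyl, a transcriptional repressor gene induced by Notch, had -1.57 in males and -1.19 in females (limma adjusted p = 0.0247), and its relative Hey1 had 1.02 on both arrays (limma adjusted p = 0.122). The largest ratio of any member on either array was the 0.63 of Maml2 on the female array.

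**Figure D3:**
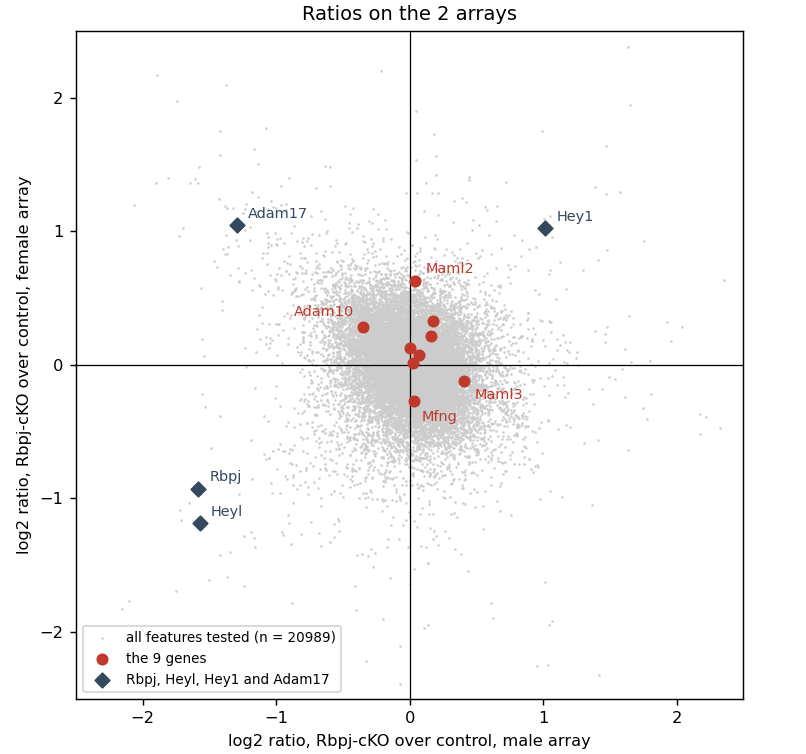
Log2 ratio of Rbpj-cKO over control on the male array (x axis) against the female array (y axis) for all 20989 features tested (grey), the 9 genes (red) and Rbpj, Heyl, Hey1 and Adam17 (dark diamonds); 11 features lie beyond the axes. The 9 genes lie within the grey centre, and Adam17 lies in the upper left quadrant with Adam10.

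Other genes that act at the same steps were taken from a list of 63, of which 61 were tested. None of the 61 passed, none had an unadjusted p under 0.05, and their median mean log2 ratio was 0.08, against 0.01 over all features. Of the 61, 21 (34.4%) were above 0 on both arrays, 9 were below 0 on both and 31 had opposite signs. Of the genes of glycosylation, the 11 others had a median of 0.02, with Eogt, which adds N-acetylglucosamine to Notch repeats, at 0.28 and the galactosyltransferase B4galt1, which extends the sugar made by the fringes, at -0.22. The 11 others of receptor cleavage had a median of 0.17, with the tetraspanin Tspan33, a partner of Adam10, at 0.28 and the related protease Adam17 at -0.12. The gamma-secretase subunit Psen2 had 0.50 in males and -0.06 in females (mean 0.22), while Aph1a averaged 0.17 and Psenen 0.11, each above 0 on both arrays. The probe of Ncstn, another subunit, was well above background on 1 of 2 arrays in each group and was not tested, and no probe on the array was found under the name Aph1c.

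Adam17 had the same split between arrays as Adam10, and a wider one. Its log2 intensity was 9.61 in male and 10.65 in female Rbpj-cKO ureters, and 10.90 and 9.61 in control ureters. The log2 ratio was -1.29 in males and 1.05 in females, at the probe that starts at base 4342 of the transcript, and -1.58 in males and 1.52 in females at a probe that overlaps it from base 4350. As for Adam10, red was lower than green on both arrays, at -1.29 and -1.05. The mean of -0.12 (SD 1.65, n = 2; limma adjusted p = 1) thus had a 95% interval from -0.99 to 0.75, wider than that of any of the 9 genes.

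The 19 other genes of receptor ubiquitination and trafficking had a median of 0.09, from the epsin Epn2 at 0.25 to the kinase Aak1, which binds Numb, at -0.20. Aak1 had 0.11 in males and -0.51 in females. Numbl, the relative of Numb, had 0.34 in males and -0.17 in females. The 5 other coactivators had a median of 0.07, and among them the acetyltransferases Kat2a, Crebbp and Ep300 had 0.23, 0.08 and 0.07, each above 0 on both arrays. The acetyltransferase Kat2b had -0.30 in males and 0.35 in females, and the splicing factor Snw1, the lowest of the 5, had -0.21 in males and 0.01 in females (mean -0.10). The 15 corepressors had a median of 0.08, from Tle1 at 0.36 to Fhl1, a partner of the Rbpj protein, at -0.25. Spen, the scaffold through which the Rbpj protein represses in the absence of Notch, had 0.33 in males and 0.26 in females (mean 0.30, SD 0.05, n = 2; limma adjusted p = 1).

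**Figure D4:**
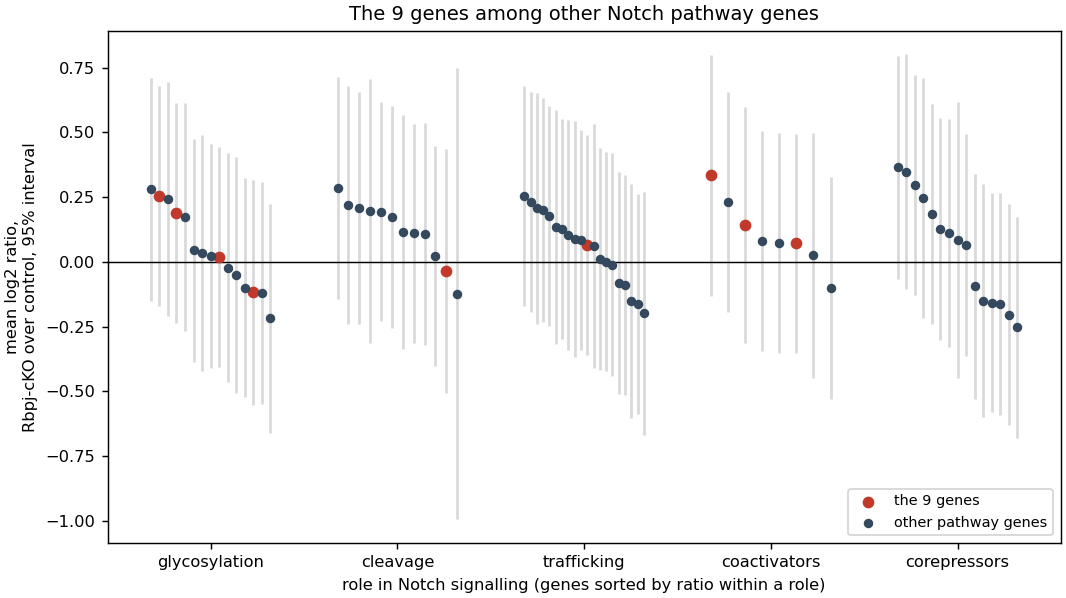
Mean log2 ratio of Rbpj-cKO over control with its 95% interval from limma (y axis) for the 9 genes (red) and 61 other tested genes (dark), sorted by ratio within each role (x axis). Every interval includes 0, and the widest belongs to Adam17, the lowest gene of the cleavage group.

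The promoters of the members were searched for the core letters bound by the Rbpj protein, TGGGAA on either strand, in the window from 250 bases before to 50 bases after each gene's start (RefSeq, GRCm38.p6). Of the 9 genes, 8 have a window in that table, 11 windows in all, and Mfng has none there. The letters occurred in 3 of the 8 genes (Lfng, Maml2 and Maml3), and in 28.3% of all 27025 genes with a window. The longer GTGGGAA, which contains TGGGAA, occurred only in Lfng among the 8 genes and in 7.25% of all genes. The sites are shown because the comparison targets the gene whose protein binds these letters. Capitals mark TGGGAA or its reverse complement TTCCCA.
Lfng at chr5:140607223-140607248 (plus strand): gtatcccacgTGGGAAggagagatct
Lfng at chr5:140607196-140607221 (plus strand): agctgggtggTTCCCAgccccttgtc
Maml2 at chr9:13662305-13662330 (plus strand): actcttgcacTTCCCAgggctcgggc
Maml3 at chr3:52105176-52105201 (minus strand): aggtcggggcTTCCCAgcctggggag
The Lfng pair starts 108 and 135 bases before the gene's start, the Maml2 site 145 bases before its downstream start of 2, and the Maml3 site 185 bases before. A match is a run of letters and not a shown binding site. Beside them stand mean log2 ratios of 0.02 for Lfng, 0.33 for Maml2 and 0.14 for Maml3, none past the test.

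**Figure D5:**
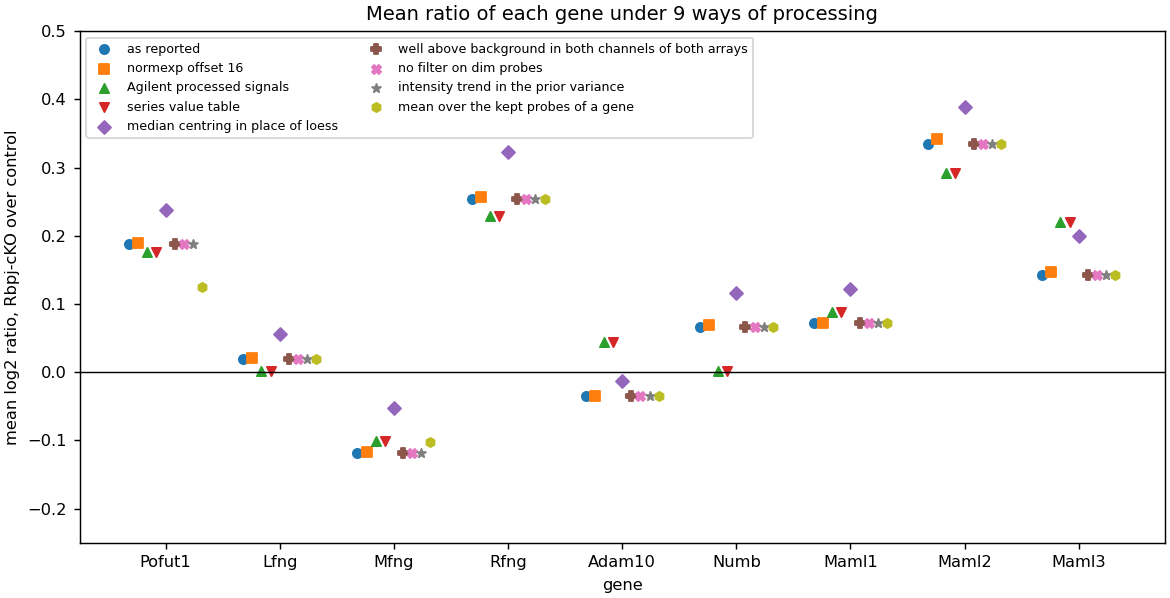
Mean log2 ratio of Rbpj-cKO over control (y axis) for each of the 9 genes (x axis) as reported and under 8 other ways of processing (symbols). Maml2 is the highest and Mfng the lowest gene in all 9, and Adam10 lies on both sides of 0, from -0.04 to 0.04.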

How the data were processed

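RNA of 2 samples, each a 2-colour array, was analysed. Per the submitters' processing notes, scans were read with Agilent Feature Extraction 10.7.3.1. Per the file headers, the deposited mean and background signals hold raw intensity, the processed signals an intensity after background subtraction and dye normalization, and the log ratio the log10 of red over green, with an error score of its own. The series value table was deposited with a score per probe. Set against the scanner files, this score reads as a signed linear fold of Rbpj-cKO over control, with a median of 1 in each column. At the tested member probes its log2 equalled the log2 ratio of the processed signals. Over all probes these log2 values correlated at 0.74 for the male and 0.70 for the female array, so the match is not general. The sources used here do not say how the score was made.

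Mean signals were corrected with normexp (offset 50) and loess within arrays, control spots at weight 0. Outlier spots were left out. Probes were kept where well above background on both arrays in Rbpj-cKO or in control RNA; the brightest probe stood for a gene. Of 39429 probes 26412 were named by RefSeq accession. Levels were scaled with Aquantile. Ratios were fitted over all features with limma 3.58.1 (R 4.3.3; two-sided, Benjamini-Hochberg, threshold 0.05; 1 residual and 10.3 prior degrees of freedom). The fit was tested on simulated data, where large changes were recovered and false calls exceeded the nominal share, so calls over all features are lenient. Members and lists were chosen with earlier results of these data known. Named are all members, and in each role the highest and lowest gene; Rbpj, Heyl and Hey1 stand beside them. Psen2, Aph1a, Psenen, Ncstn, Numbl, Kat2a, Kat2b, Crebbp, Ep300 and Spen were added for their roles after their values were seen. Not every gene of the lists is reported here by name. Probe positions are those in the files (mm9).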

Additional observations from a re-analysis of the deposited data

Results flagged for a closer look

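For 3 of the 9 genes the ratio of Rbpj-cKO over control had opposite signs in males and females. Mfng had a log2 ratio of 0.0321 in males and -0.27 in females, Adam10 had -0.35 in males and 0.28 in females, and Maml3 had 0.40 in males and -0.12 in females. With 1 array of each sex and the dyes turned between them, this difference was not tested. Opposite signs were found for 58.6% of all features. With Agilent's processed signals Maml3 had 0.38 in males and 0.06 in females, and with its probes averaged Mfng had -0.07 in males and -0.14 in females, so neither gene had opposite signs there.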

How the results depend on the processing

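None of the 9 genes and none of the 61 other pathway genes passed as reported or under the 8 alternatives with a test (lowest adjusted p among the 9 genes 0.9998), and none of the 9 had an unadjusted p under 0.05 in these. The count of calls over all features moved more. It was 27 as reported, 29 with a normexp offset of 16 and 26 when every channel of a probe had to be well above background. It was 0 with the processed signals, the series value table, median centring or no filter on dim probes, 10 when a gene's probes were averaged and 41 when the prior variance followed intensity. The mean of Adam10 was -0.0351 as reported, but 0.0442 with the processed signals and with the series value table, at gene and at probe level, and the cause was not tested. The means of the other 8 genes kept their sign under these 8 alternatives. Median centring put the median of all features at 0.17 in males and -0.09 in females, and there Lfng and Maml1 also had opposite signs in the sexes, as Lfng and Numb had with the processed signals and the series value table. With both of these Maml3 was above 0 in both sexes (0.38 in males and 0.06 in females), and with probes averaged Mfng was below 0 in both (-0.07 in males and -0.14 in females). Leaving out 1 array leaves the ratio of the other, with no test, and the median of the 9 genes then lay between 0.04 and 0.13. The sign of the mean then turned for Mfng without the female array (0.0321), for Maml3 without the male array (-0.12) and for Adam10 without the male array (0.28). Slide was not run as a block, since both arrays lie on 1 slide. No separate paired analysis was run, because the ratio fitted for each array already pairs Rbpj-cKO with control RNA. Signal over background limits the 4 dim probes.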
